A study of Mus musculus with 10 samples.

Results

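Fibroblasts were a rare class of barcodes in these tumors. They numbered 141 of the 65298 barcodes kept over 10 single-cell RNA libraries (0.216%). A fibroblast was selected on measured counts of unique molecular identifiers (UMIs, which tag single RNA molecules). The sum of Col1a1, Col1a2, Col3a1, Dcn, Lum and Pdgfra had to reach 4 UMIs with at least 1 from Dcn, Lum or Pdgfra. That sum also had to exceed the mural genes Rgs5, Notch3, Abcc9 and Myh11 and the tumor genes Cdh13, Pvt1, Esx1 and Fmnl2, and the immune genes Ptprc, C1qa, C1qb, C1qc and Skap1 could give at most 1 UMI. A barcode was kept if it held between 200 and 7000 genes and no more than 10% of its UMIs were mitochondrial. For comparison, 48586 tumor, 586 immune and 72 mural barcodes were taken by mirrored rules, with at least 4 UMIs of their own genes. A tumor barcode also needed more UMIs of the tumor genes than of the fibroblast genes or the mural genes, and at most 1 immune UMI.

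The tumors grew from E0771 cells, a mouse mammary carcinoma line, placed in the fourth mammary fat pad of female mice aged 16 weeks and taken after 21 days. WT and EC-AGO1-KO mice were littermates on a C57BL/6 background, and the knockout came from a floxed AGO1 gene with a Cre driven by the VE-Cadherin (Cdh5) promoter, so that the deletion was aimed at endothelial cells and not at fibroblasts or tumor cells. A single WT and a single KO library formed batch 1. Batch 2, sequenced on another instrument, had the WT libraries 1, 3, 4 and 5 and the KO libraries 1, 2+3, 4 and 5+6, of which 2+3 and 5+6 each pooled 2 tumors. The libraries held 8323896 to 10591577 UMIs.

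Fibroblasts make and remodel the collagen-rich matrix of connective tissue, and in tumors they also secrete growth factors, chemokines and matrix-modifying enzymes. Some take on a contractile state, marked by smooth muscle actin (Acta2) and transgelin (Tagln), and others keep an adventitial state marked by Pi16 and Dpp4 or an inflammatory state marked by cytokines. Type I collagen is built from the chains encoded by Col1a1 and Col1a2, type III from Col3a1, and decorin (Dcn) and lumican (Lum) are small proteoglycans that bind collagen fibrils.

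The 2 batches gave very different views of the fibroblasts. The 20 fibroblasts of batch 1 held a median of 7179.5 UMIs and 2596 genes, against 449 UMIs and 308 genes in the 121 fibroblasts of batch 2. Batch 1 fibroblasts ranged from 2803 to 14020 UMIs and batch 2 fibroblasts from 225 to 3127. The median sum of the 6 selecting genes was 210.5 UMIs in batch 1 and 20 in batch 2. At the lower limit, the 5 members with a sum of 4 held a median of 371 UMIs, and 6 barcodes with a sum of 3 that met every other condition held 326.5. All of these came from batch 2. A single UMI of Dcn, Lum or Pdgfra carried the selection in 1 of 20 batch 1 and 77 of 121 batch 2 members. A further 489 batch 2 and 3 batch 1 barcodes reached the sum of 4 and lacked Dcn, Lum and Pdgfra UMIs. No member's barcode sequence recurred among the kept barcodes of another library, and any 2 libraries shared at most 28 kept barcodes.

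The selecting genes are given as a description. Col1a1 (ENSMUSG00000001506; mm10, chromosome 11, 94936224 to 94953042) stood at 22337 CPM (UMIs of a gene per 1000000 UMIs, with Actb left out of the total) in the WT and 12407 in the KO fibroblasts of batch 1. In batch 2 it ranged from 32099 to 112902 CPM in WT and from 41764 to 73684 in KO libraries. Tumor barcodes held 14.4 to 200 CPM of Col1a1, and barcodes with at most 50 UMIs, which sample free RNA, 61.4 to 685. Dcn (ENSMUSG00000019929; chromosome 10, 97479609 to 97518143) had a UMI in 19 of 20 batch 1 and 79 of 121 batch 2 fibroblasts, Lum in 12 and 28, and Pdgfra, a growth factor receptor of fibroblasts, in 13 and 37. In tumor barcodes of batch 2, with median depths of 663 to 1363 UMIs, 0.0266% to 0.137% held a Dcn UMI, and none did in batch 1. Pdgfra was less particular, with a UMI in 21.1% and 22.7% of the tumor barcodes of batch 1 and 2.19% to 4.17% in batch 2. It was the only one of Dcn, Lum and Pdgfra in 1 batch 1 and 28 batch 2 members, with up to 17 tumor gene UMIs. Col1a1, Col1a2 and Col3a1 were all present in 19 batch 1 and 67 batch 2 fibroblasts. Col1a1 without Col1a2 or Col3a1 was found in 1 batch 1 and 20 batch 2 fibroblasts.

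Genes outside the selection rule were also higher in the fibroblasts. The leading gene was Postn (periostin, a matrix protein of activated fibroblasts; chromosome 3, 54361109 to 54391037). The log2 ratio of its level to that in all other kept barcodes, with 20 CPM added to both, had a median of 6.14 over the 10 libraries and ran from 4.32 to 8.04. The next genes by the same measure were Pdzrn3 (5.81), the collagen chain Col5a2 (5.80), the secreted guidance factor Slit2 (5.78) and the zinc finger gene Bnc2 (5.69). Plpp3, Col12a1, Abi3bp, Bicc1, the Wnt modulator Sfrp2, Slit3, the transcription factor Ebf1, fibronectin (Fn1), the receptor Ror1 and tenascin C (Tnc) followed with medians of 5.35 to 4.87. All 15 were above 0 in 10 of 10 libraries. Because other genes of the same cells chose the members, these ratios describe the class and are not a test. Against mural barcodes, in the 7 libraries with at least 5 of them, Slit2 (6.47), Pdzrn3 (6.40), Bnc2 (6.27), podoplanin (Pdpn, 6.03) and Abi3bp (5.80) led. Postn was not among them. Mural barcodes held 2313 CPM of it in batch 1, where they were only 3 barcodes of the WT library. In batch 2 they held 0 to 2172 CPM, against 516 to 2401 CPM in batch 2 fibroblasts.

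**Figure D1:**
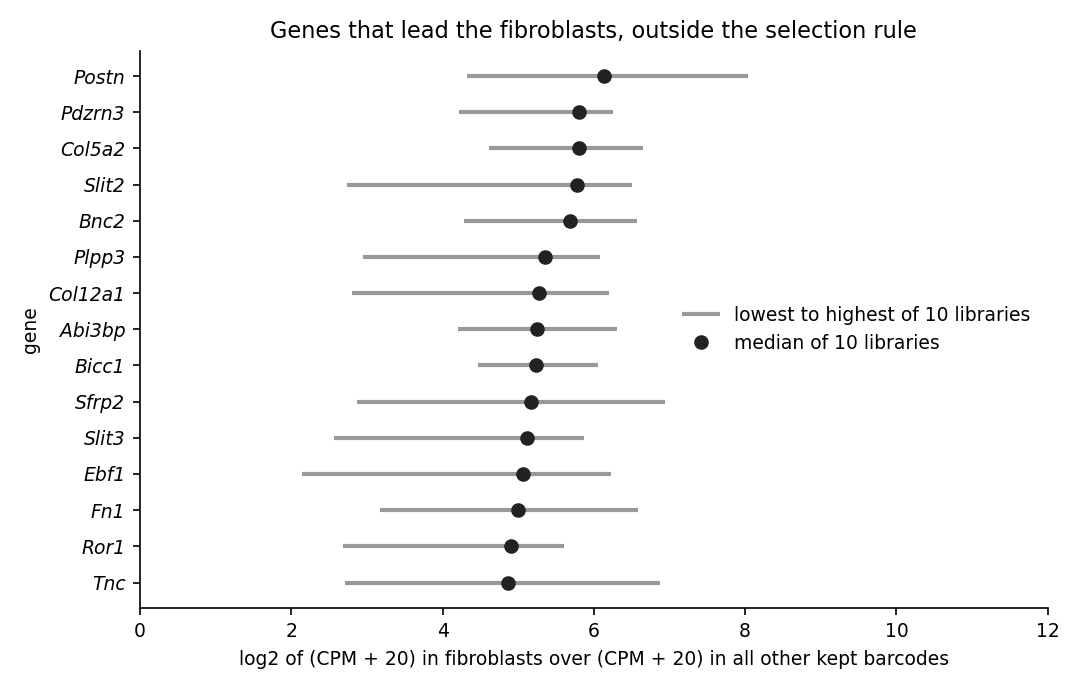
The 15 genes outside the selection rule that led the fibroblasts; the horizontal axis is the log2 ratio of CPM in fibroblasts to CPM in all other kept barcodes of the same library, with 20 CPM added to both. Discs are medians and lines the range of 10 libraries. Every line lies above 0, from a median of 6.14 for Postn to 4.87 for Tnc.

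Markers of other cells were at or near 0. The 230900 UMIs in all fibroblasts held 12 UMIs of 8 endothelial markers, of which Pecam1 gave 8, and Emcn, Cldn5, Vwf and Tie1 were at 0. Of 9 mural markers, some of them in the selection rule, 12 UMIs were found, and Mcam, Des and Higd1b were at 0. The 10 macrophage markers gave 15 UMIs (C1qc and Tyrobp at 0), the 9 T cell markers 2 (Cd3e, Cd3d, Cd3g, Trac, Trbc2 and Cd2 among those at 0) and the 8 epithelial markers 8, of which 6 were in WT 4. No UMI of 7 adipocyte or 6 Schwann cell markers was seen, and skeletal muscle and red blood cell markers gave 7 and 3. The rule itself limited C1qa, C1qb, C1qc and Skap1 and the mural genes Rgs5, Notch3, Abcc9 and Myh11, so low counts of these check nothing. Summed over all members, the endothelial, epithelial, adipocyte and Schwann cell markers, which the rule did not use, did not go against the fibroblast label. In single members this was less clear. A WT batch 1 fibroblast held 7 of the endothelial UMIs (990 CPM) and a KO 1 fibroblast 3 (3497 CPM). A WT 4 fibroblast held 4 of the epithelial UMIs (3964 CPM). In batch 2 the endothelial and epithelial sums were 59.4 and 104 CPM, above the 28.9 and 63.7 CPM of tumor barcodes. In batch 1 they were 52.4 and 6.55 CPM, below the 73.8 and 173 CPM of tumor barcodes.

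Tumor cell RNA was the exception. Of the 6 E0771 markers, all were detected, with 477 UMIs in total and Pvt1 as the leading gene in the mean over libraries. Their summed level per library was 1499 CPM in the WT and 1357 CPM in the KO library of batch 1 and 2725 to 5160 CPM in batch 2. The 4 tumor genes of the selection rule reached 452 CPM in batch 1 and 3577 CPM in batch 2, against 6071 and 18081 CPM in tumor barcodes. The same genes limited the fibroblasts and selected the tumor barcodes, so this distance is partly set by the selection. They had no UMI in 4 of 20 and 41 of 121 fibroblasts. One fibroblast of the KO library of batch 1 had 16 tumor gene UMIs against 20 UMIs of the selecting genes, no Col1a2, Col3a1 or Dcn, and the most UMIs of all members (14020). Doublets were not removed, and what doublets or free tumor RNA contributed was not tested.

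Matrix genes were well above their level in tumor barcodes. Among the 28 matrix glycoproteins, all had UMIs, 28 in batch 1 and 25 in batch 2, and their summed level was 30059 CPM in WT and 26764 CPM in KO fibroblasts of batch 1 and 5676 to 14015 CPM in batch 2. In tumor barcodes the mean sum was 739 CPM in batch 1 and 538 CPM in batch 2. Sparc, which binds collagen, was found in 20 of 20 batch 1 and 46 of 121 batch 2 fibroblasts, Postn in 18 and 52, and Tnc in 15 and 24. Outside the selecting genes, 16 of 17 collagen chains had UMIs, led by Col5a2, Col12a1 and Col6a3, with 9607 CPM in sum in batch 1 and 5433 in batch 2. The 9 proteoglycans outside the rule were led by biglycan (Bgn), versican (Vcan) and perlecan (Hspg2). The 17 genes of collagen maturation, led by the collagen chaperone Serpinh1 and the crosslinking enzyme Lox, reached 7287 and 1707 CPM. The 19 proteases and inhibitors, with Timp3 and Timp1 among the most abundant, reached 8971 and 3147 CPM.

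Genes of signalling, transcription and cell state differed widely in level. All 20 cytokines and chemokines had UMIs, with 626 in total and Ccl2, which attracts monocytes, Cxcl12 and Ptgs2 leading. The 8 complement genes, led by Serping1, C3 and C4b, summed to 2333 CPM in batch 1 and 356 CPM in batch 2, against 13.9 and 13.4 CPM in tumor barcodes. Of 21 growth factors 19 had UMIs, led by Igf1, neuregulin (Nrg1) and the activin subunit Inhba, and Igf2 and Bmp4 were at 0. The 18 receptors outside the rule were led by Tgfbr3, Itgb1 and Egfr and held 3925 CPM in batch 1 and 4898 in batch 2. Of 18 mesenchymal transcription factors 17 were detected, led by Tcf4, Ebf1 and Runx1, and Tcf21 was at 0. Antigen presentation genes (9 of 10 detected) were led by B2m, H2-K1 and H2-D1, with Ciita at 0. The adipogenic list (11 of 12) was led by Igf1, Gpc3 and Cebpb, the interferon response list (18 of 18) by Ifi27l2a, Iigp1 and Stat2, the glycolysis and hypoxia list (14 of 14) by Ldha, Aldoa and Eno1, the cell cycle list (18 of 18) by Tubb5, Top2a and Hmgb2 and the immediate early and heat shock list (15 of 15) by Fos, Egr1 and Jun. The proliferation genes Mki67 or Top2a had a UMI in 5 of 20 batch 1 and 6 of 121 batch 2 fibroblasts, of which 1 and 4 also had at least 5 tumor gene UMIs, as did 3 and 11 of all members. The cell cycle list summed to 1966 and 4661 CPM in fibroblasts and 3651 and 10613 CPM in tumor barcodes of batch 1 and batch 2. It was uneven among fibroblasts, with at most 67 UMIs in a batch 1 and 39 in a batch 2 member against medians of 9.5 and 1.

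The depth of batch 1 showed differences among single fibroblasts. Acta2 and Tagln gave 620 UMIs in the 20 fibroblasts, and 516 of these (83.2%) lay in 2 of them, 1 in each library. The WT fibroblast held 172 Acta2 and 164 Tagln UMIs with 1 Dcn UMI and 4 UMIs of mural genes, and the KO fibroblast held 52 and 128 with 9 Dcn and none of mural genes. They were the second and the third deepest of the 20 fibroblasts. A further 4 fibroblasts exceeded 1000 CPM of the pair, and 9 had neither gene. The highest Dcn level, 5236 CPM, was in a KO fibroblast with neither, and the same cell held 11 Pi16, 7 Dpp4 and 12 Il6 UMIs and the highest sums of the adventitial (16396 CPM) and complement lists (12125 CPM). Pi16 was found in 10, Dpp4 in 3, Il6 in 4 and Cxcl12 in 10 of the 20 fibroblasts. In batch 2, 6 of 121 fibroblasts had an Acta2 or Tagln UMI and 1 had more than 1, with 4 Acta2 and 3 Tagln UMIs in all. The adventitial list summed to 3480 CPM in batch 1 and 861 CPM in batch 2 and was led by Gsn, Dpt and Ly6a, and Pi16 was at 0 in batch 2. The contractile list, led by Cald1, Tagln and Acta2, summed to 7536 and 1677 CPM. Mural barcodes, only 3 in batch 1, held 6775 CPM of Acta2 and 826 CPM of Tagln there. In batch 2 they held 333 to 1361 and 0 to 643 CPM. Acta2 in fibroblasts was 1006 and 3012 CPM in batch 1 and 0 to 234 CPM in batch 2.

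**Figure D2:**
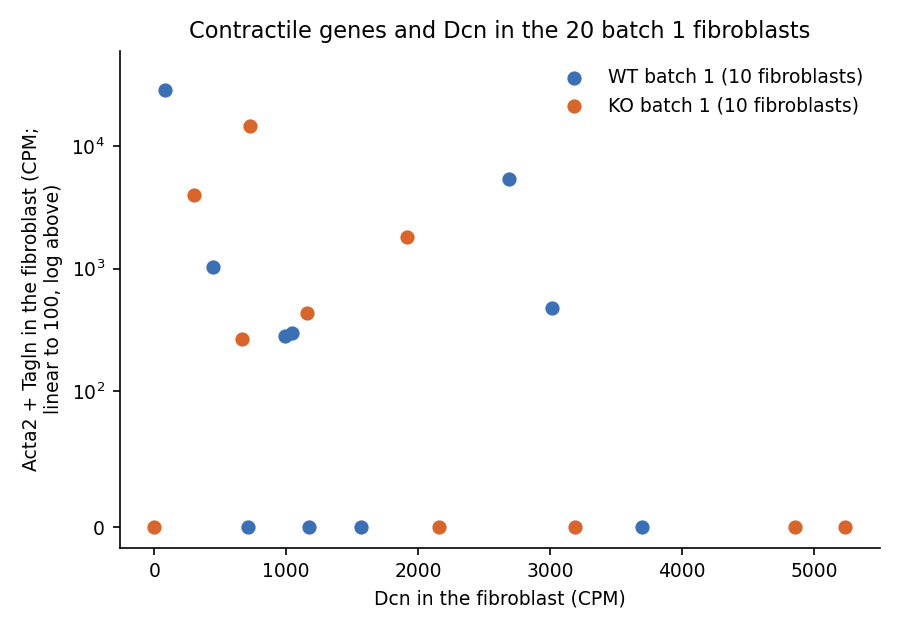
Each disc is 1 of the 20 fibroblasts of batch 1, with Dcn on the horizontal and the sum of Acta2 and Tagln on the vertical axis, both in CPM (vertical axis linear up to 100 and logarithmic above). The 2 highest discs reach 28436 CPM (WT) and 14529 CPM (KO) beside 84.6 and 726 CPM of Dcn, and 9 discs lie at 0 on the vertical axis.

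The first comparison asked whether fibroblasts took a different share of the barcodes when endothelial AGO1 was deleted. Fibroblasts made up 0.344% ± 0.306 (SD, n = 5) of the barcodes kept from WT tumors and 0.349% ± 0.384 (SD, n = 5) of those from EC-AGO1-KO tumors. The difference of 0.00428 percentage points was far smaller than the spread between libraries (p = 0.943 by an exact permutation test, two-sided, with labels exchanged inside each batch and a smallest possible p of 0.0143). In batch 1 the shares were 0.838% in WT (95% Clopper-Pearson interval 0.402% to 1.53%, counting error only) and 1.03% in KO (0.496% to 1.89%). In batch 2 the WT shares were 0.0785%, 0.415%, 0.117% and 0.274% in libraries 1, 3, 4 and 5. The KO shares there were 0.192%, 0.228%, 0.124% and 0.166% in libraries 1, 2+3, 4 and 5+6, all inside the WT range. Within batch 2 alone KO was lower by 0.0435 points, written as -0.0435 (exact permutation p = 0.686, smallest possible p 0.0286). Both batch 1 libraries lay above all of batch 2, where the depth per barcode and the free RNA also differed.

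**Figure D3:**
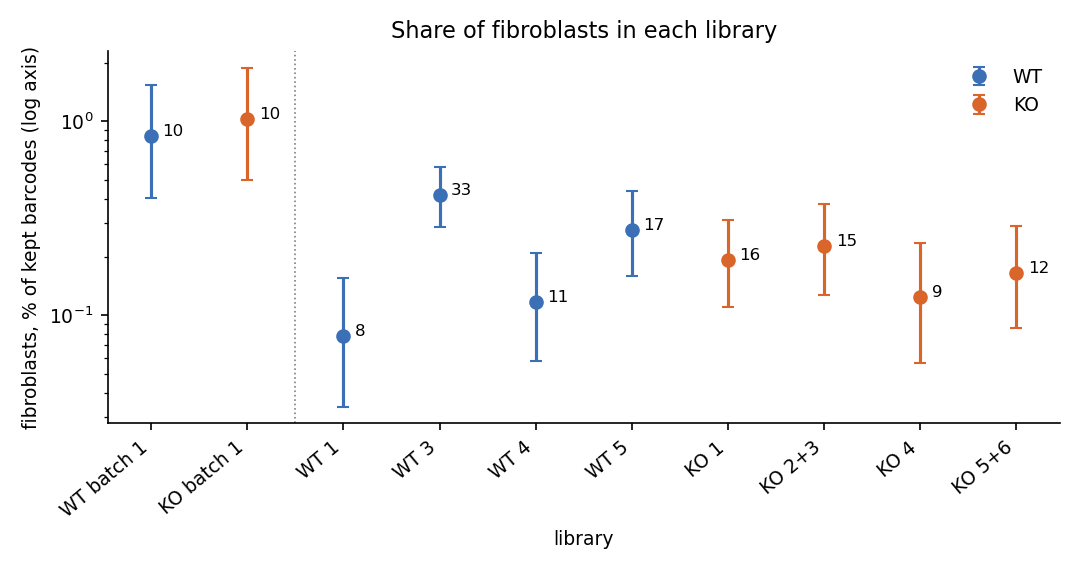
Fibroblasts as a percentage of kept barcodes on a log axis in each of 10 libraries, with 95% Clopper-Pearson intervals and the number of fibroblasts beside each disc. The dotted line separates batch 1 (0.838% and 1.03%) from batch 2, where 4 KO libraries (0.124% to 0.228%) lie inside the range of 4 WT libraries (0.0785% to 0.415%).

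Other definitions of the share gave other values. Counting only fibroblasts without tumor gene UMIs, KO minus WT came to -0.0859 points (exact permutation p = 0.371). With the denominator limited in the same way as well, the shares in WT were 0.990% in batch 1 and 0.971%, 2.54%, 1.00% and 0.858% in batch 2. In KO they were 0 of 346 barcodes in batch 1, which allows up to 0.867%, and 0.976%, 0.506%, 0.386% and 0.544% in batch 2. Here KO was lower by 0.789 points (-0.789, exact permutation p = 0.0429), on 29 WT and 16 KO fibroblasts, and KO 1 lay inside the WT range. Among fibroblast, mural and immune barcodes together KO was lower by 20.7 points (-20.7, exact permutation p = 0.0571), with 12 to 50 barcodes per batch 2 library as the denominator. The immune barcodes in it were themselves 1, 2, 1 and 5 in the WT and 6, 21, 7 and 7 in the KO libraries of batch 2.

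Dcn and Lum RNA of all deposited barcodes gave a measure that needs no selection of cells. WT tumors gave 11.5 ± 4.54 CPM (SD, n = 5) and KO tumors 16.9 ± 6.25 CPM (SD, n = 5), which differ by 5.45 CPM (exact permutation p = 0.129). The values were 14.8 in WT and 24.6 in KO of batch 1, 6.82, 17.5, 10.0 and 8.16 in the WT and 21.7, 9.75, 12.2 and 16.3 in the KO libraries of batch 2, so the groups overlapped. With Pdgfra added the difference was 0.820 CPM (exact permutation p = 0.871), but much of the Pdgfra RNA lay in tumor barcodes, as in WT 1 with 193 of 264 UMIs. In such totals a different number of fibroblasts and a different amount of RNA per fibroblast cannot be told apart. The selected fibroblasts held at least 93.1% of these UMIs in both libraries of batch 1 and 8.64% to 34.3% in batch 2. Barcodes with at most 50 UMIs carried 3.56 and 4.90 CPM in batch 1 and 17.3 to 40.8 in batch 2.

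The second comparison asked which genes differed in fibroblasts between KO and WT tumors. UMIs were summed over the fibroblasts of each library with at least 10 of them, 4 WT and 4 KO, which left out WT 1 and KO 4. Of 361 genes tested, edgeR's quasi-likelihood test with batch as a covariate called 0 (0%) at an adjusted p under 0.05. At an unadjusted p under 0.05 there were 8, and DESeq2 called 0 with 8. Of these 8 in edgeR, Col1a1 and Col1a2 belong to the selection rule and had log2 fold changes of -0.80 and -0.81. The p-values measure the spread between libraries of separate tumors or pools of 2 tumors within a batch. The same test was run on simulated data with the depth of these libraries and the same dispersion for every gene. It recovered 0 of 68 genes changed by 1 on the log2 scale, among 327 tested. It recovered 83.9% of 56 genes changed by 2, among 294 tested. The adjustment is more lenient with so many changed genes than with few. The recovery therefore does not say how often a change by 2 in few genes, or in genes of larger spread, would be called.

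The deleted gene Ago1 (chromosome 4, 126435012 to 126468583) was near the limit of detection, as 3 UMIs in all fibroblasts, 2 in WT batch 1, 1 in WT 4 and none elsewhere. Since the deletion was aimed at endothelial cells, this count does not check the labels. Ago2 and Ago3 had 22 UMIs each, Dicer1 5 and Ago4 2.

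Of the 5 genes with the smallest unadjusted p in the upward direction, the one with the most UMIs (289) was Ebf1, a transcription factor of mesenchymal and B lineage cells (ENSMUSG00000057098; chromosome 11, 44617317 to 45008091). Its level in batch 1 was 728 CPM for the WT and 1248 CPM for the KO fibroblasts. In batch 2 it was 258, 1549, 1012 and 1090 CPM in WT 1, 3, 4 and 5 and 3363, 2246, 4374 and 3928 CPM in KO 1, 2+3, 4 and 5+6. KO lay above WT in batch 1, with a single library of each, and the groups did not overlap in batch 2. The log2 fold change was 0.95 with an SE of 0.44, computed back here and below from the fold change and the test's F statistic. Its unadjusted and adjusted p in edgeR were 0.0412 and 0.991. Leaving out each library in turn gave 0.79 to 1.16. A fit with the replicate number as a block gave 1.54 (edgeR adjusted p 0.993). Mural barcodes also carried Ebf1, at 991 CPM in batch 1 (3 WT barcodes) and 4179 to 7126 CPM in batch 2. Tumor barcodes held at most 28.0. The mural markers that the rule did not use were Kcnj8 (1 UMI, in WT 5), Cspg4 (2 UMIs, in KO batch 1 and WT 5), and Mcam, Des and Higd1b (0 UMIs), and what mural RNA contributed to Ebf1 was not tested.

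Among the 361 genes, 5 (1.39%) were higher in KO in batch 1 and, with no overlap between groups, in batch 2. In the same way 0 (0%) were lower. Batch 1, with a single library per group, could show only a direction. How many genes would meet this by chance was not tested. The 5 genes were named after their values were seen, and none passed the adjusted test. Beside Ebf1 they were Zeb2, a repressor of epithelial genes (0.57, SE 0.42), Bgn (0.39, SE 0.60), Lhfp (0.72, SE 0.41) and the kinase gene Cdk14 (0.55, SE 0.46), each given as a log2 fold change. Zeb2 in batch 2 ran from 434 to 1246 CPM in WT and 1309 to 1754 CPM in KO. With the replicate block its log2 fold change was 1.22 (edgeR adjusted p 0.993). Bgn rested on at most 3 UMIs in each batch 2 library. The gaps of Zeb2 and Cdk14 were thin as well. The lowest KO level of Zeb2 in batch 2 rested on 6 UMIs (KO 5+6). That of Cdk14 rested on 4 UMIs (KO 4, 833 CPM, against 723 CPM in WT 4). In the fitted libraries Lhfp and Cdk14 both reached at most 723 CPM in WT, against 1414 and 1316 CPM in KO. KO libraries alone brought these genes past the filter on low counts, so their direction is no support for a change.

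Other genes with the smallest unadjusted p in edgeR had fewer UMIs or overlapping groups. Upward, these were the spectrin Sptbn1 (log2 fold change 1.02, unadjusted p 0.0239), the kinase Dapk1 (1.52, 0.0351), the synapsin Syn3 (1.29, 0.0669) and the immediate early gene Fosb (1.27, 0.0741). Downward, these were the translation inhibitor Pdcd4 (-1.54, 0.0112), metallothionein Mt2 (-2.10, 0.0139), Fn1 (-1.40, 0.0219), vinculin (Vcl, -1.22, 0.0567) and Acta2 (-1.70, 0.0569). The adjusted p was 0.991 for each. The filter on low counts could be met by the libraries of 1 group. In the fitted WT libraries Sptbn1, Dapk1, Syn3 and Fosb reached at most 710, 623, 623 and 376 CPM. The highest KO values were 1528, 3070, 1608 and 1309 CPM. KO libraries alone brought these genes into the test, so their upward direction is no support for a change. Leaving out 1 library moved Fn1 to -2.07 (KO batch 1) or -0.87 (WT 5), Acta2 to -0.99 (KO batch 1), Dapk1 to 2.15 (KO 2+3), Syn3 to 1.87 (WT 5) and Mt2 to -2.68 (WT batch 1), and the replicate block gave -0.03 for Fn1. Fn1 was 2926 CPM in WT and 2629 CPM in KO of batch 1, and in batch 2 it was 258, 710, 868 and 2024 CPM in WT against 292, 416, 1458 and 218 CPM in KO libraries, so the groups overlapped. Acta2 in KO and WT rested on 1 and 3 UMIs in batch 2, so its value came from batch 1, where 211 WT and 83 KO UMIs lay mostly in single cells. Mt2 had 236 UMIs in WT batch 1, 93 in KO batch 1 and 11 in batch 2.

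**Figure D4:**
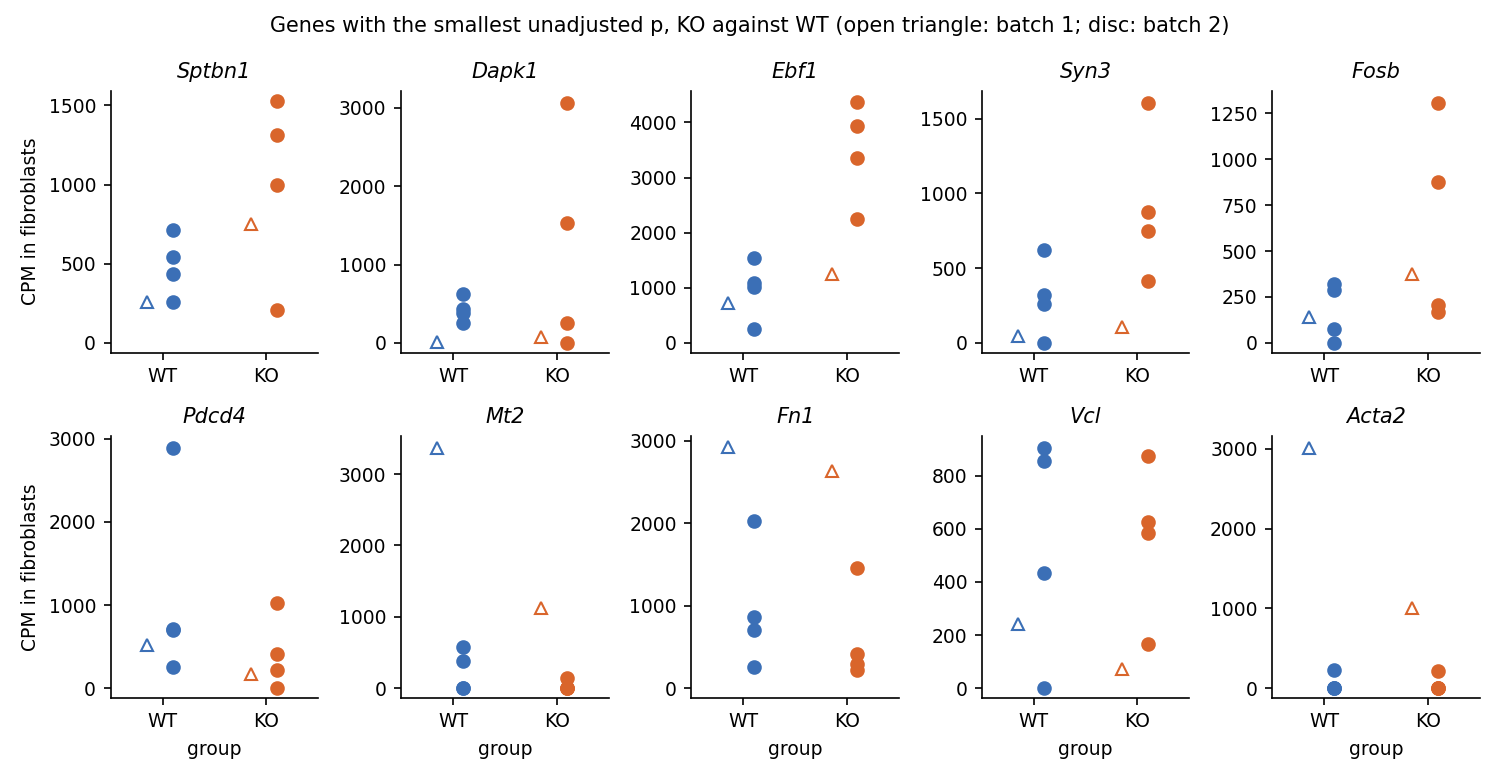
CPM in the summed fibroblasts of each library for the 10 genes outside the selection rule with the smallest unadjusted p in either direction, WT beside KO, with open triangles for batch 1 and discs for batch 2. Ebf1 is the gene shown in which the KO symbols lie above the WT symbols of the same batch without overlap. None of the 10 passed the adjusted test.

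No gene list had a called member between KO and WT. Over all tested genes the median log2 fold change was -0.08 and 149 of 361 were positive. Among the matrix glycoproteins 2 of 10 tested were positive (median -0.39), and among collagens outside the rule 2 of 7 (median -0.33, and -0.03 in DESeq2). All 3 tested contractile genes were negative (median -1.18). The summed contractile list was not lower in KO of batch 2, at 1023 to 3333 CPM against 516 to 2725 CPM in WT. Of the 5 mesenchymal transcription factors tested 4 were positive (median 0.55), and the summed level of the whole list was 3483 CPM in WT and 5864 CPM in KO of batch 1 and 4902 to 10434 CPM in WT and 10673 to 16871 CPM in KO of batch 2. Batch 1, with a single library per group, could show only a direction. Of 18 lists, that of the mesenchymal transcription factors, which holds Ebf1, alone had sums that did not overlap between the groups in batch 2. Its gap in batch 2 lay between 10434 CPM in WT 5 and 10673 CPM in KO 1. Ebf1 gave 1090 CPM of the first and 3363 CPM of the second, more than the gap, so the list is no result apart from Ebf1. The sums of the other 17 overlapped in batch 2. Those of the matrix glycoproteins were 5676 to 14015 CPM in WT and 8652 to 12719 CPM in KO of batch 2. Of 4 proteases and inhibitors 3 were positive (median 0.36), and 2 of 4 immediate early genes were (0.19). Each other list had 2 or fewer tested members outside the selection rule.

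The third comparison set batch 2 against batch 1, which the labels separate by sequencing instrument and which also differ in depth per cell. Of the 361 genes edgeR called 185 (51.2%), 45 (12.5%) higher and 140 (38.8%) lower in batch 2. A gene high in a single batch could pass the filter on low counts through that batch alone. Gm10076, Rps13 and Tuba1a, at 0 UMIs in batch 2, and Gm10800, at 0 in batch 1, are such genes. What the filter contributed to the split of higher and lower calls was not tested. With size factors of the relative log expression method in place of TMM, 18 were higher and 147 lower, and the median log2 fold change of all genes moved from 0.02 to -0.39. Without WT batch 1 there were 9 higher and 140 lower, and without KO batch 1, 22 and 154.

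Ribosomal protein genes made up 59 of the 140 genes lower in batch 2 (42.1%), 60 of the 361 tested (16.6%) and 0 of the 45 higher. All 107 such genes together took 12.7% and 15.5% of fibroblast UMIs in batch 1 and 1.06% to 3.25% in batch 2. All other kept barcodes also held less in batch 2, at 2.55% to 4.23% against 19.7% and 21.4% in batch 1. Whether the drop was equally large in both was not tested. Rps29 had 561 UMIs in 20 fibroblasts and 1 UMI in 121 (3676 and 14.8 CPM, 248-fold, 95% counting interval 44.3 to 9800). Its fitted log2 fold change was -9.95 (edgeR adjusted p 2.23e-07). That fit scaled the libraries by TMM factors of 0.496 and 0.608 in batch 1 and 1.07 to 1.37 in batch 2. Gm10076, Rps13 and the tubulin gene Tuba1a were at 0 in batch 2 and at least 46.4-fold, 28.6-fold and 19.6-fold lower there, taken against a floor of 3 UMIs over the batch.

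Matrix and contractile genes were also lower in batch 2. Against 38.8% of all tested genes called lower, the test called 8 of 10 matrix glycoproteins lower and 0 higher, with Sparc at -3.51, Postn at -2.65, Fn1 at -3.19 and Tnc at -2.87 on the log2 scale (edgeR adjusted p 2.36e-06, 5.12e-05, 3.03e-05 and 0.000209). It called 5 of 7 collagens outside the rule lower (Col5a1, Col5a2, Col6a1, Col6a2 and Col6a3), 3 of 4 proteases and inhibitors (Timp1 and Serpinf1 among them), 3 of 3 contractile genes (Acta2, Tagln and Cald1), 3 of 4 immediate early genes (Fos, Jun and Egr1), and the single tested members Bgn, Serpinh1 and B2m of 3 other lists. Acta2, Tagln and Bgn held at least 1006, 1757 and 2398 CPM in batch 1. In batch 2 they held at most 234, 156 and 439 CPM. Batch 1 alone brought these genes into the test, so their lower calls are partly set by the filter on low counts. The median log2 fold change was -2.45 for the glycoproteins, -2.56 for the collagens and -5.96 for the contractile genes, against 0.02 over all genes. Tagln was 2583 and 1757 CPM in batch 1 and 0 to 156 CPM in batch 2, and 2 cells carried 164 of 181 WT and 128 of 145 KO UMIs in batch 1. Acta2 and Tagln together were 4063 CPM in all 20 fibroblasts of batch 1, 810 CPM in the 18 without these cells and 104 CPM in batch 2. Leaving out 1 library kept Sparc, Postn, Fn1 and Tnc called and moved Fn1 to -4.18 (WT batch 1), -3.80 (WT 5) or -2.51 (KO batch 1) and Tnc to -3.50 (WT batch 1) or -3.56 (WT 5). Sparc was also lower in the other kept barcodes of batch 2, at 109 to 173 CPM against 301 and 308. In the same barcodes Fn1 was 3.21 to 8.29 CPM against 10.5 and 11.3, Tnc was higher, at 5.32 to 13.8 CPM against 3.08 and 3.73, and Postn overlapped between the batches, at 3.03 to 12.6 CPM against 0.777 and 5.46. Among the contractile genes, Tagln was -6.51 and moved to -8.72 (without WT batch 1), -7.56 (WT 5) or -5.93 (WT 3), and Acta2 moved from -5.96 to -7.31 (WT 5) or -5.30 (WT 3). No tested member of the lists of mesenchymal transcription factors (5), receptors (2), growth factors (2), cytokines (1) or cell cycle genes (1) was called.

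The genes higher in batch 2 were longer. Their median span on the genome was 83.3 kb, against 4.47 kb for the genes lower and 36.7 kb for all tested (GENCODE M21, mm10). Outside the selecting genes, the 5 largest rises were Gm10800 (0 UMIs in batch 1, 192 in batch 2, at least 145-fold higher), Gm26870 (5 and 397 UMIs, 180-fold, interval 76.4 to 557), Dapk1 (log2 fold change 3.35), Nr2f2 (2.88) and Fubp3 (2.78), with edgeR adjusted p of 1.53e-06, 9.05e-07, 0.00272, 0.00355 and 0.00281. Nr2f2, which encodes a nuclear receptor, was 2.13 without WT batch 1 (edgeR adjusted p 0.0867) and 4.05 without KO batch 1. Fubp3 was 1.91 without KO batch 1 (adjusted p 0.128) and 3.70 without WT batch 1. Gm10800 and Gm26870 were also higher in the other kept barcodes of batch 2, at 706 to 1905 CPM against 23.8 and 25.5 CPM, and 2007 to 4263 CPM against 302 and 309 CPM. So were Fubp3, at 1072 to 1583 CPM against 166 and 173 CPM, and Nr2f2, at 215 to 358 CPM against 45.5 and 46.9 CPM. Dapk1 overlapped there, at 8.57 to 30.4 CPM against 8.82 and 12.9 CPM, and in fibroblasts KO 1 held 21 of its 49 batch 2 UMIs and KO 4 none. The fitted log2 fold change of Gm26870 was 6.31, and it moved to 7.15 without KO batch 1 and to 5.64 without WT batch 1. The tumor genes Pvt1 (3.05) and Fmnl2 (2.20) were called higher as well, and both belong to the selection rule.

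Col1a1 did not move with the other chain of type I collagen. Fibroblasts of both batch 1 libraries held 2.06 Col1a1 UMIs for each Col1a2 UMI, and those of the 8 batch 2 libraries 7.40 to 39.2. Counted over all barcodes of a library, which the selection did not touch, the ratio was 2.30 and 2.34 in batch 1 and 14.8 to 31.3 in batch 2. The batches did not overlap in either count. The ratio of Col3a1 to Col1a2 in fibroblasts was 1.34 and 1.24 in batch 1 and 0.400 to 1.06 in batch 2. In barcodes with at most 50 UMIs the Col1a1 to Col1a2 ratio was 4.58 and 3.83 in batch 1 and 8.66 to 17.2 in batch 2. Actb took 2.41% and 2.29% of fibroblast UMIs in batch 1 and 7.06% to 11.5% in batch 2, and 1.75% and 1.97% against 10.0% to 17.8% of whole libraries. The labels give the same 3' library protocol for both batches, which was not tested. The instrument, the depth per cell, the free RNA and the tumors all differ between the batches, and their parts in these differences cannot be told apart.

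**Figure D5:**
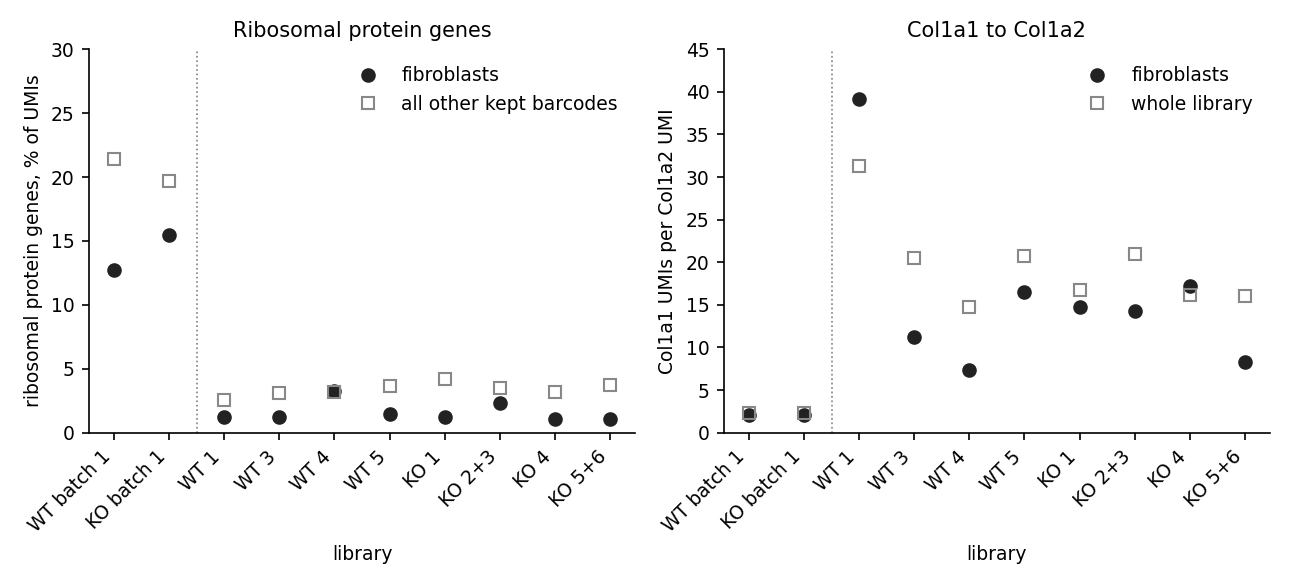
Left, UMIs of 107 ribosomal protein genes as a percentage of all UMIs without Actb in fibroblasts (discs) and all other kept barcodes (squares) of each library. Right, Col1a1 UMIs per Col1a2 UMI in fibroblasts (discs) and whole libraries (squares). The 2 batch 1 libraries, left of the dotted line, lie apart from all 8 batch 2 libraries in both panels.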

How the data were processed

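The files the authors deposited hold unnormalized UMI counts, with empty droplets included, from 10x Genomics 3' libraries. Per the labels, they used Cell Ranger 7.1.0 on mm10. No normalized values were used. Fibroblasts were taken by the count rule in the text, and Actb was left out of totals. The members, gene lists and tests were chosen with earlier results of these data known. Each library was 1 sample. Shares were compared by an exact permutation test within batch, and summed UMIs by edgeR 4.0.16 (TMM, filterByExpr, batch covariate, Benjamini-Hochberg adjustment) in R 4.3.3, with DESeq2 1.42.0 and RLE size factors among the alternatives. Doublets were not called or removed. Depth was 8323896 to 10591577 UMIs per library, and 1 UMI equalled 12.1 to 258 CPM in the fibroblasts of a library. Genes were named by rule: the 3 most abundant of each list, markers of other cells at 0, the 15 leading genes and 5 against mural barcodes, the 5 largest called changes each way or the 5 smallest p, Ago1 and the selecting genes. A few genes that this rule names are not reported here. Replicate numbers 1 and 4 occur in both groups of batch 2. The edgeR step was tested on simulated data. Gene positions are from GENCODE M21 (mm10). Python 3.11.15 and scipy 1.17.1 ran the rest.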

Additional observations from a re-analysis of the deposited data

Results flagged for a closer look

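2 results stood far from the other libraries of their group, out of 16 groups of 5 libraries examined. Chance alone marks about 1 in 20 such groups where the libraries are alike, but each group held 1 library of batch 1 and 4 of batch 2, so that rate does not apply here. The fibroblast share in the KO library of batch 1 was 1.03%, while the other 4 KO tumors or pools had 0.124% to 0.228%. Col3a1 in the fibroblasts of the WT library of batch 1 was 14516 CPM, against 2064 to 5551 CPM in the other 4 WT libraries. Col3a1 is one of the genes that chose the fibroblasts. Both libraries are from batch 1, in which the median depth of a fibroblast was 7179.5 UMIs against 449 in batch 2.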

How the results depend on the processing

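The difference in fibroblast share (0.00428 percentage points, KO minus WT) had no stable direction. It was -0.0859 with tumor gene UMIs at 0 in the members, -0.0209 with Col1a2 or Col3a1 required (an alternative chosen after seeing the data), -0.0388 after thinning to 500 UMIs, -0.0435 in batch 2 alone, -0.789 among barcodes with no tumor gene UMI and -20.7 among fibroblast, mural and immune barcodes. Leaving out each library gave -0.0435 (either batch 1 library) to 0.0605 (WT 3), with -0.0263, -0.0164 and -0.00247 without WT 1, WT 4 and KO 2+3. Only the denominator without tumor gene UMIs passed a p of 0.05 (0.0429). With the replicate block, over the pairs that share a number or batch 1, the difference was 0.105 (exact permutation p = 0.25, the smallest possible). The Dcn and Lum difference stayed positive in all 16 alternatives, from 0.820 to 8.95, and none passed; 8.95 was the value with the replicate block. KO against WT, 0 genes were called in 18 of 20 alternatives, DESeq2 included. With no filter on low counts edgeR called 1 of 11937, Ankrd1, with 45 UMIs in WT batch 1 and 0 in all other libraries, and with Col1a2 or Col3a1 required 1 of 500, Col1a1 (-1.14, adjusted p 0.000463), a selecting gene. The replicate block called 0 of 127. The correlations of deviations between same-numbered libraries were -0.0257 and -0.128. Each pair held a library with few fibroblasts (8 in WT 1, 9 in KO 4), so these values cannot show whether the pairs share more than a number. Between batches 185 calls became 1479 with no filter and 554 with a minimum count of 3, as more genes were tested, and 149 to 194 with each library left out. The split of higher and lower calls was 21 and 140 with DESeq2, 39 and 1440 with no filter, 86 and 468 with a minimum count of 3, 18 and 149 with Col1a2 or Col3a1 required, and 9 and 140 without WT batch 1. Among the named genes, DESeq2 did not call Gm10076 (adjusted p 0.0721), and with Col1a2 or Col3a1 required edgeR did not call Fubp3 (0.324). The cause of these changes was not tested. Fits with at least 20 fibroblasts per library, or with members without tumor gene UMIs, could not be fitted, since 1 library had enough fibroblasts. A fibroblast of batch 2 held a median of 449 UMIs and 308 genes. Apart from thinning the share to 500 UMIs, what this depth contributed to the results was not tested.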
